A study of Mus musculus with 2 samples.

Results

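The endoplasmic reticulum (ER) chaperone genes Hspa5, Hsp90b1, Calr and Sdf2l1, the ER co-chaperone gene Dnajb9, the ER folding enzyme genes Pdia4 and Creld2, the ER degradation genes Herpud1 and Edem1, and the transcription factor gene Xbp1 were followed on both arrays of a study of Mul1. They were chosen by name as genes of the ATF6 and XBP1 arms of the unfolded protein response, and all 10 were found among 37008 gene names on the array, through 17 of its 56600 gene probes. Mul1 encodes a ubiquitin ligase of the mitochondrial outer membrane, and by its title the study asked about reactive oxygen species in oocytes without it and the embryos they give. RNA of 1 pool of 213 unfertilised wild-type oocytes (labelled MUL1 +/+) and of 1 pool of 123 unfertilised knockout oocytes (MUL1 -/-), both of the strain C57BL/6, was amplified as cRNA carrying the dye Cy3 and hybridised to 1 single-colour Agilent array per genotype. The labels give neither the age of the animals nor the part of Mul1 that was removed. With 1 array per genotype there was no replicate check and no test, so precision is limited by having so few arrays.

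The ER folds proteins that are secreted or inserted into membranes. When unfolded proteins build up there, the sensors ATF6, IRE1 (encoded by Ern1) and PERK (encoded by Eif2ak3) signal to the nucleus. ATF6 is cut at the Golgi into a transcription factor, and IRE1 splices Xbp1 mRNA so that it encodes one, and together they raise the genes of chaperones, disulfide isomerases and the machinery of ER-associated degradation. BiP, the product of Hspa5, binds the sensors when the ER is not under stress. An oocyte secretes the zona pellucida proteins and holds the ER calcium store that is released at fertilisation. The splicing of Xbp1 mRNA was not analysed here.

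Mul1 itself, as a check of the labels, read 3353 in wild type and 1074 in the knockout at its probe for NM_026689, a log2 difference of -1.61. In the knockout this probe remained 67.9 times brighter than the dimmest probe well above background, and since the labels do not give the deleted part, whether this probe lies in it is not known. Its other probe, for an Ensembl transcript, was near background at 19.3 and 23.1. Of the 22894 genes well above background on both arrays, the median difference was 0.03, and the central 90% lay between -0.59 and 0.76. All differences are on the log2 scale, knockout minus wild type, each array having been scaled by its 75th percentile first. The error given beside a difference (±) comes from the scanner software, which assigns each member spot a multiplicative error of 0.1 or slightly more. It holds no spread between pools or animals. Beside a gene mean, the errors of its probes were combined as if independent, and the result holds no spread between probes. For scale, 296 probes printed at 10 spots had a median SD of the difference between spots of 0.04.

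The members divided. Hspa5 and Herpud1 were both more than 2-fold lower on the knockout array, while the other 8 members lay within 1.5-fold of the wild-type level. Thus 2 of 10 members were at least 2-fold lower, where 1.37% of all measured genes were. The same 2 members made up the count at 1.5-fold, where 5.19% of genes were lower. None was at least 1.5-fold higher, against 7.83% of genes, nor at least 2-fold higher, against 2.93%. Probe by probe, 5 of 17 were at least 1.5-fold lower and 4 at least 2-fold lower, beside 6.4% and 1.86% of all measured probes, and none was 1.5-fold or 2-fold higher, beside 7.36% and 2.72%. The differences of small signals scatter more, and of the 6627 genes at least as bright as Dnajb9, whose mean signal was the lowest among the members, 2.19% were at least 1.5-fold lower and 0.905% at least 2-fold lower, and 1.83% and 0.528% were higher by those folds. All 17 probes were well above background on both arrays and none was saturated.

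**Figure D1:**
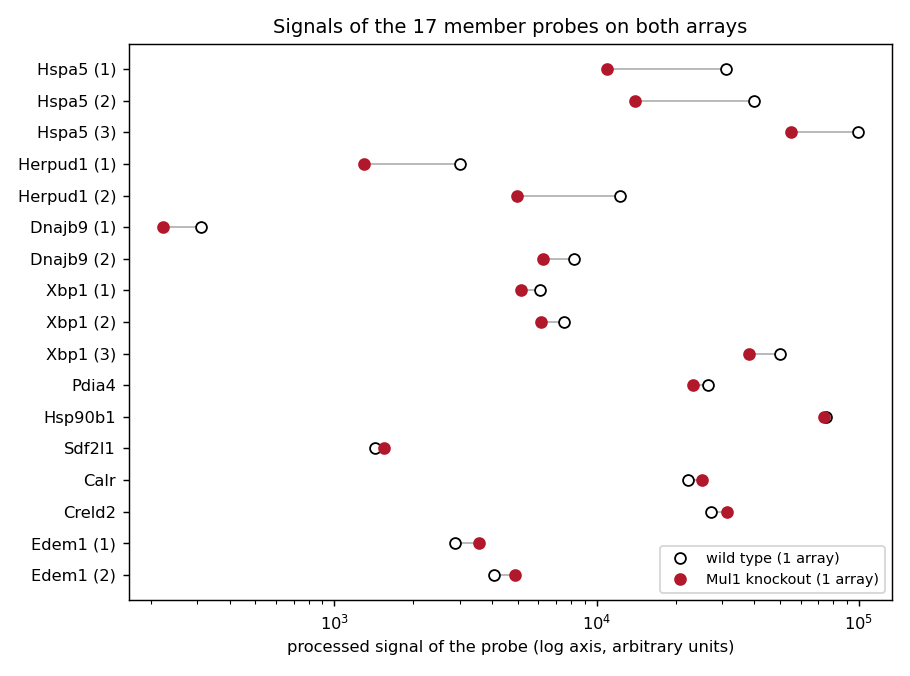
Processed signal (log axis) of each of the 17 probes on the wild-type array (open circles) and the knockout array (filled circles), with probes of a gene numbered from 5′ to 3′. The gap between the circles is wide for the 3 Hspa5 probes and the 2 Herpud1 probes and narrow for the others, and Hsp90b1 nearly overlaps itself.

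Hspa5 encodes BiP, the Hsp70 chaperone of the ER lumen. Its 3 probes for NM_022310 lie on the plus strand of chromosome 2 of mouse build mm9, and no exon annotation of mm9 was used. The probe nearest the 5′ end, at chr2:34630699-34631075, reaches over 377 bases of genome with 60 bases of sequence, so its sequence is not contiguous in the genome. It read 31188 in wild type and 10917 in knockout oocytes, a difference of -1.48 ± 0.20. The middle probe, at chr2:34631136-34631195, read 39869 and 14045, a difference of -1.47 ± 0.20. Both therefore read about the same amount lower on the knockout array, 2.79-fold and 2.78-fold. The probe nearest the 3′ end, at chr2:34631913-34631972, read 99062 and 55205, a difference of -0.81 ± 0.20 or 1.75-fold. The mean over the 3 probes was -1.26 ± 0.12, a 2.39-fold lower value, and 157 places from the lowest of the 22894 genes. The sequences of the 2 lower probes, which carry the larger difference, are given as the array design has them, from 5′ to 3′.
Hspa5, chr2:34630699-34631075, plus strand: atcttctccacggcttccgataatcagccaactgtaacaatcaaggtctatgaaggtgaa
Hspa5, chr2:34631136-34631195, plus strand: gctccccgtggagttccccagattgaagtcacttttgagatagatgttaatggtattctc

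The probes of Hspa5 thus did not read the same size. From the first to the last probe, 837 bases of genome apart, the difference moved by 0.67 toward 0. Among 5384 transcript accessions with several measured probes, the 3′-most minus the 5′-most probe had a median of -0.03 and a central 90% between -0.48 and 0.46, and 2.15% moved upward by as much as Hspa5. Of the 38 of these accessions whose 2 end probes averaged at least 2-fold lower, 3 moved upward by as much, Hspa5 included. Without regard to direction or order, 22.4% of 1947 genes with 3 measured probes had a probe range at least as wide. Those genes were not matched to Hspa5 for brightness, and differences of small signals scatter more. The 3′ probe of Hspa5 was also bright, and among 1182 probes with a wild-type signal of at least 30000 the central 90% of differences lay between -0.32 and 0.16. In that bright set 13 probes were at least 2-fold lower, 2 of them the upstream Hspa5 probes.

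Herpud1 encodes a ubiquitin-like membrane protein of the ER that takes part in ER-associated degradation. Its probe at chr8:96918575-96918634 (mm9, plus strand) read 3009 in wild type and 1298 in the knockout, a difference of -1.18 ± 0.20. Its probe at chr8:96919117-96919176 read 12324 and 4980, a difference of -1.27 ± 0.20. Both probes were lower on the knockout array, by 2.27-fold and 2.42-fold, and differed from each other by less than the scanner error. The mean over both was -1.23 ± 0.14, or 2.34-fold lower, at place 166 from the lowest. The sequence of the upstream probe is printed because its reading and that of the downstream probe, over 480 bases away, were alike.
Herpud1, chr8:96918575-96918634, plus strand: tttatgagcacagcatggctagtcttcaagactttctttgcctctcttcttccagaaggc

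The other degradation gene among the members, Edem1, lay on the opposite side. It encodes a mannosidase-like protein that takes misfolded glycoproteins out of the folding cycle. Its probes read 2887 and 4078 in wild type against 3548 and 4890 in the knockout, differences of 0.33 ± 0.20 and 0.29 ± 0.20. Their mean of 0.31 ± 0.14 was the highest among the members. Both degradation genes are counted as targets of the unfolded protein response, and their differences here had opposite signs under every setting tried.

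Xbp1 and Dnajb9 were slightly lower. The 3 Xbp1 probes read 6102, 7498 and 50119 in wild type against 5166, 6117 and 38082 in the knockout, in order from 5′ to 3′, and their differences were -0.21, -0.26 and -0.36, each ± 0.20. All 3 lay below 0 and none was 1.5-fold lower. Their mean was -0.28 ± 0.12. Dnajb9 encodes ERdj4, a J-domain co-chaperone that binds BiP and represses IRE1. Its probes read 308.6 and 8183 in wild type against 222.7 and 6240 in the knockout, differences of -0.44 ± 0.21 and -0.36 ± 0.20, with a mean of -0.40 ± 0.14. Both lay inside the central 90% of all genes. On the spike-in scale Xbp1 read -0.14 and Dnajb9 -0.26. The 3′ probe of Xbp1, with its wild-type signal above 30000, was below the central 90% of probes that bright.

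The lumenal chaperones and folding enzymes other than Hspa5 had 1 probe each and stood close to 0. Hsp90b1, which encodes GRP94, the Hsp90 of the ER, read 75287 in wild type and 73607 in the knockout, a difference of 0.00 ± 0.20, or 0.14 with spike-in scaling. Calr, which encodes the lectin chaperone and calcium store protein calreticulin, read 22390 and 25126, a difference of 0.20 ± 0.20. Pdia4, which encodes the disulfide isomerase ERp72, read 26502 and 23231, a difference of -0.16 ± 0.20. With the 75th percentile scaling all 3 lay within the scanner error of 0, but Calr read 0.24 with normexp and 0.34 on the spike-in scale, beyond its error. Creld2, which encodes a disulfide isomerase-like protein, read 27353 and 31304, a difference of 0.23 ± 0.20. Sdf2l1, which encodes a partner of the BiP co-chaperone complex, read 1427 and 1550, a difference of 0.15 ± 0.20. With 1 probe each, these 5 values have no second reading on the array.

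**Figure D2:**
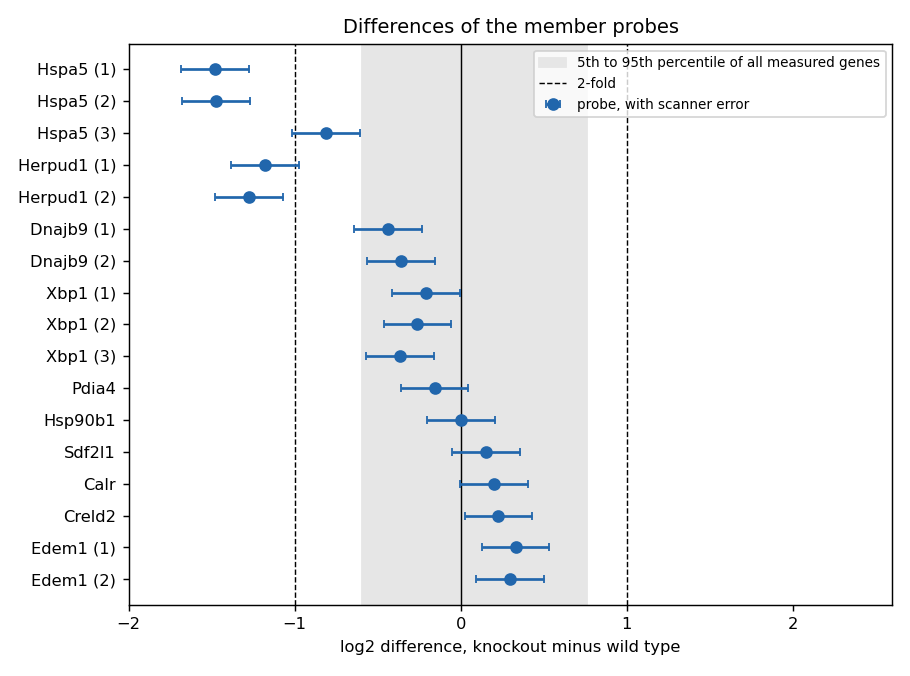
Log2 difference, knockout minus wild type, of each member probe with its scanner error (bars), genes ordered by their mean and probes of a gene numbered from 5′ to 3′. The grey band spans -0.59 to 0.76, the central 90% of all measured genes, and the dashed lines mark 2-fold. The Hspa5 and Herpud1 probes lie left of the band and the other 12 probes inside it.

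In order, the members ran from Hspa5 (-1.26) and Herpud1 (-1.23), which did not differ beyond their errors, over a gap to Dnajb9 (-0.40), and then in small steps through Xbp1, Pdia4, Hsp90b1, Sdf2l1, Calr and Creld2 to Edem1 (0.31). Among these last 8, no neighbours differed beyond their scanner errors. The median over the 10 members was -0.08 beside 0.03 over all measured genes, and it became 0.06 on the spike-in scale, which raised the median of all genes to 0.17. On that scale Hspa5 read -1.11 and Herpud1 -1.09, and both stayed more than 2-fold lower. Taking only the brightest probe of each gene left Herpud1 alone more than 2-fold lower, at -1.27, because the brightest Hspa5 probe is the 3′ one.

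ATF6, with the factor NF-Y, binds the ER stress response element, and a shorter form of it, ERSE-II, was described in the Herpud1 promoter. The promoter windows of all 10 members were present in the RefSeq table of build GRCm38.p6 (250 bases before to 50 after a start), and they were searched on both strands for ERSE (CCAAT, any 9 bases, then CCACG), ERSE-II (ATTGG, any base, then CCACG) and the XBP1-bound UPRE (TGACGTGG). An exact ERSE stood before 4 members, Hspa5, Hsp90b1, Calr and Creld2, with 2 copies in Hsp90b1, and 0.119% of 32851 windows held one. An ERSE-II stood before Herpud1, and 0.0365% of windows held one. No member window held the UPRE letters, which 0.676% of windows did, and no ERSE or ERSE-II letters lay in the windows of Xbp1, Dnajb9, Pdia4, Sdf2l1 or Edem1. The Edem1 window does not lie exactly at its annotated gene start, unlike those of the other 9 members. The 250 bases before that start may therefore not all have been searched. The element nearest to a start was that of Herpud1, 52 to 42 bases before it, followed by that of Hspa5 at 65 to 47 bases. Those of Hsp90b1 ended 89 and 194 bases before the start, that of Creld2 at 126 to 108 and that of Calr at 162 to 144. A match describes letters only. The 250 bases before each of these 5 starts are given 5′ to 3′ in the direction of the gene, on GRCm38.p6, with the fixed bases of each element in capitals, since genes with the same element gave different readings.
Hspa5, chr2:34771840-34772089, plus strand: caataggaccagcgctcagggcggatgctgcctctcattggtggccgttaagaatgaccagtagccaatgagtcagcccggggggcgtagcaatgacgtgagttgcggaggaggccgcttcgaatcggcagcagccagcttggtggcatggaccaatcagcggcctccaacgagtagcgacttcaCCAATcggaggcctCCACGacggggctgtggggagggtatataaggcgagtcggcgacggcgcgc
Herpud1, chr8:94386179-94386428, plus strand: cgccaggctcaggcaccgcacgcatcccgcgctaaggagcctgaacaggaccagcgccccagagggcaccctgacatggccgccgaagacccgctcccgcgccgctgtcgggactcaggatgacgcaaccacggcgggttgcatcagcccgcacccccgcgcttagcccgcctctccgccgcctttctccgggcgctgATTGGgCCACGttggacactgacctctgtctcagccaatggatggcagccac
Hsp90b1, chr10:86705445-86705694, minus strand: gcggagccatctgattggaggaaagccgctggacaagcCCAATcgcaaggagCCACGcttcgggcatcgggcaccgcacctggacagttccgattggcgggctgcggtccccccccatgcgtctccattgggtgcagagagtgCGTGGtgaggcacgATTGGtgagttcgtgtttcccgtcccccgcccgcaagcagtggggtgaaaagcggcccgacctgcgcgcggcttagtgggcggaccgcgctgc
Calr, chr8:84846932-84847181, minus strand: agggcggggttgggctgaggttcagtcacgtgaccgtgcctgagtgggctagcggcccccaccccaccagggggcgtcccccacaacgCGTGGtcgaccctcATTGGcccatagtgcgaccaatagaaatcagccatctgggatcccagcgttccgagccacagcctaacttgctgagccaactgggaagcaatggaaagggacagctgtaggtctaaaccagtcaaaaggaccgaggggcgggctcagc
Creld2, chr15:88819396-88819645, plus strand: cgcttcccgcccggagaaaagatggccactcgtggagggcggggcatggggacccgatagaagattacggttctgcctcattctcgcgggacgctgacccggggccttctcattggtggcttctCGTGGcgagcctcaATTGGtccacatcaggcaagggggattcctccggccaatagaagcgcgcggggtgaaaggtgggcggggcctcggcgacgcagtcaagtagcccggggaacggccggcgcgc

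Read against the arrays, the element did not go with 1 direction. Of the 5 members with an element, Hspa5 and Herpud1 were more than 2-fold lower, and Hsp90b1, Calr and Creld2 read between 0.00 and 0.23. Outside the members, 20 genes with an ERSE were measured, a set defined by sequence after the arrays had been read. Their median difference was 0.14, and 15 of them were above 0, beside 12541 of all 22894 measured genes. None was at least 1.5-fold lower, and Ero1b was at least 1.5-fold higher. With 5.19% of all measured genes lower and 7.83% higher by that fold, counts of 0 and 1 among 20 genes are near the background and say little about the element. Among them Pdia6, a disulfide isomerase gene, read 0.14, the lectin chaperone gene Canx 0.18, the BiP co-chaperone gene Dnajc3 0.10, the degradation ligase gene Syvn1 0.06 and the degradation channel gene Derl3 0.26. Of 7 further genes with an ERSE-II, the co-chaperone gene Dnajb11 read 0.21, and the splicing factor gene Rbm39 was at least 1.5-fold lower at -0.83 as a mean of 8 probes that disagreed, the highest at -0.05.

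**Figure D3:**
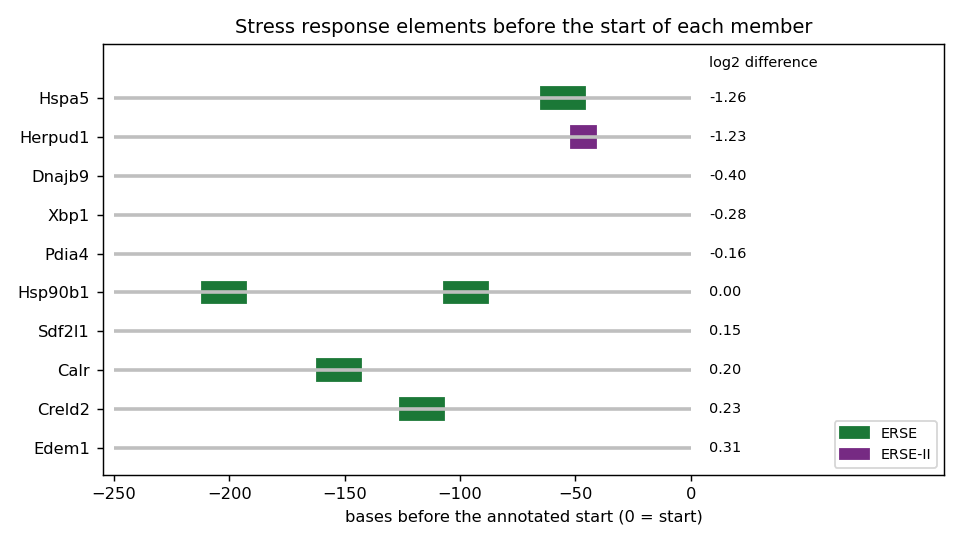
Position of exact ERSE and ERSE-II matches in the 250 bases before the start of each member's RefSeq window, which is the annotated gene start for all members but Edem1, on either strand, with members ordered by log2 difference (printed at right). Elements stand before Hspa5 and Herpud1, at the low end, and before Hsp90b1, Calr and Creld2, which read between 0.00 and 0.23.

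The other genes of the ER folding system were close to equal on the arrays. Of 114 measured genes in 7 lists, 2 were at least 1.5-fold lower (1.75%) and 3 at least 1.5-fold higher (2.63%), and their median was 0.08. Over all measured genes these shares were 5.19% and 7.83%, and over genes at least as bright as Dnajb9 2.19% and 1.83%, so the counts are near the background of brighter genes. Of the 15 sensors and activators none was 1.5-fold apart. Atf6 read -0.04, Ern1 -0.10 and Eif2ak3 -0.03, and the list ran from Mbtps2, the site-2 protease gene, at -0.52 to the NF-Y subunit gene Nfya at 0.26. The mean over probes of each of the 3 sensors thus lay near 0, although the 5 Ern1 probes ran from -0.74 to 0.30 and disagreed.

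Among 13 partners of the ER Hsp70 and Hsp90, the median was 0.00. The J-domain genes Dnajc25 at -0.77 and Dnajc1 at -0.67 were at least 1.5-fold lower, each as a mean of 2 probes. Their probes for RefSeq mRNAs read -0.55 and -0.21, less than 1.5-fold lower, and their Ensembl transcript probes -0.98 and -1.14. The Ensembl probe of Dnajc1 was dim, at 59.2 and 26.3. Cdnf, a neurotrophic factor gene related to Manf, was higher at 1.18, from signals of 29.1 and 64.4 near background. Hyou1, the gene of the BiP nucleotide exchange factor GRP170, read -0.50 as a mean that no probe matched. Its probe for the Ensembl transcript ENSMUST00000160112 read 368 and 34.6, a difference of -3.38, while its 3 probes for NM_021395 read 0.33, 0.44 and 0.61. The 3 RefSeq mRNA probes of Hyou1 were thus on the side opposite to Hspa5, and the value for the gene as a whole cannot be interpreted.

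Of all 22894 measured genes, 12541 were above 0. Disulfide isomerases and oxidases had 16 of 19 members above 0 and a median of 0.17. Ero1b, an ER thiol oxidase gene, read 0.60 from probes at 0.00 and 1.20 that disagreed. P4hb, the gene of protein disulfide isomerase, read 0.17 and Pdia3 0.19. Lectin chaperone and glycan trimming genes had a median of 0.08 over 9 measured of 10, from Calr3 at -0.32 to the glucosidase gene Ganab at 0.21. Calr3 had 1 dim probe, at 74.1 and 58.2, and the 4 Ganab probes ran from -0.33 to 0.69. Translocon, signal peptidase and oligosaccharyltransferase genes had 20 of 23 above 0 and a median of 0.12, from Stt3a at -0.40 to Ostc at 0.40. The 4 Stt3a probes disagreed and ran from -0.79 to 0.03. Genes of retrieval and other targets of the response had 10 of 11 above 0 and a median of 0.18. The KDEL receptor gene Kdelr3 read 0.49 in that list, Wfs1, an ER membrane protein gene, 0.61, and Sec24d was lowest at -0.03. In these 4 lists none was at least 1.5-fold lower, and their medians stayed above 0 under each scaling.

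The 24 genes of ER-associated degradation had a median of -0.07, which became 0.07 on the spike-in scale 0.05 when only probes for RefSeq mRNAs were used and 0.03 by the brightest probe, and none was 1.5-fold apart. They ran from Sel1l, the gene of the ligase adaptor, at -0.58 to Rnf5 at 0.33. Sel1l repeated the pattern of Hyou1, with its Ensembl transcript probe at -2.18 and its probes for the RefSeq mRNA at 0.17 and 0.27. Herpud2, the paralogue of Herpud1, read -0.38 over 3 probes, with single probes between -0.60 and -0.04. RefSeq mRNA probes alone were a setting chosen after these disagreements were seen. With them none of the genes of the 7 lists was at least 1.5-fold lower and 2 were at least 1.5-fold higher. Over all 15179 genes measured in that setting, 2.83% were lower and 7.89% higher by that fold.

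**Figure D4:**
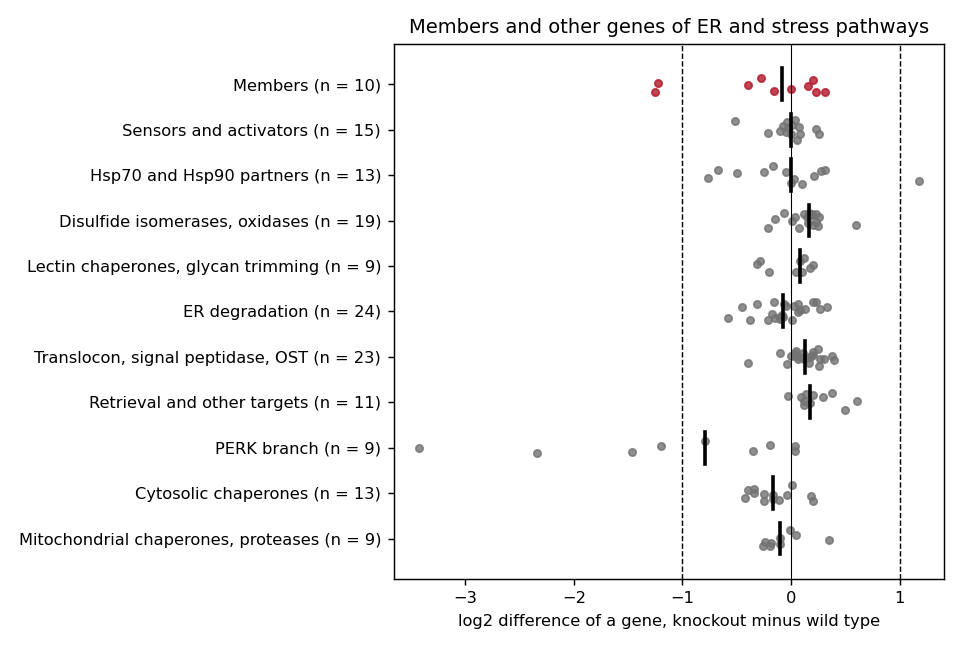
Log2 difference, knockout minus wild type, of every measured gene (points, mean over probes) in the member set and 10 other lists, with the median of each list (bars) and dashed lines at 2-fold. Hspa5 and Herpud1 stand apart from the other members, and the PERK branch has the lowest median of the lists shown, at -0.79.

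The PERK branch, the third arm of the response and shared with other stresses, was lower on the knockout array at several genes. Of its 9 measured genes 5 were at least 1.5-fold lower, beside 5.19% of all measured genes, with Atf4 at mean probe signals of 45068 and 25432 (-0.79), Ddit3 at 3194 and 619 (-2.33), Atf3 at -3.43, Chac1 at -1.47 and Ppp1r15a at -1.19, while Asns read 0.04 and Trib3 -0.35. Chaperones outside the ER gave no gene 1.5-fold apart. Of the 13 cytosolic ones 10 were below 0, with a median of -0.17 (-0.02 on the spike-in scale) and Hspa8 at -0.16. Of the 9 mitochondrial chaperones and proteases 7 were below 0, with a median of -0.11 (0.04 on the spike-in scale). Hspa9, the mitochondrial Hsp70 gene, read -0.19. Over all 22894 measured genes, 10353 were below 0. The size for Hspa5 was therefore not shared by the other Hsp70 genes read here.

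Markers of other cells moved between the arrays as well, and in such pools fewer cells of a type and less RNA per cell cannot be told apart. Of 10 oocyte markers 9 were measured, 5 above 0 and 4 below, with a median of 0.19. Their summed signal (not scaled between arrays) was 115344 in wild type and 106792 in the knockout. Most of it came from Gdf9 (68126 and 61515) and Oosp1 (39329 and 35398). Figla was not well above background on both arrays. The 12 macrophage markers were all above 0, with summed signals of 20412 and 52067, and of 8 neutrophil markers 6 were measured and 5 above 0, at 3846 and 11174. Of 8 B and plasma cell markers 6 were measured and all above 0, with summed signals of 1055 and 2386. Of 8 oviduct markers 7 were above 0 (77205 and 119848). The rise in that sum lay in Ovgp1 (24265.8 and 69104.5), while the bright markers Krt8 and Krt18 read 0.06 and -0.14. Of 12 cumulus and granulosa markers 7 were above 0 (189813 and 190296), and all 5 measured red cell markers were below 0 (63435 and 20242). The extremes of these lists were S100a9 at 3.27 and Hba-a2 at -1.66. Within the oocyte list the extremes were Ooep at 0.94, from signals of 33.5 and 62.7 near background, and Oosp1 at -0.12. The part of these cells in the Hspa5 and Herpud1 differences was not tested.

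**Figure D5:**
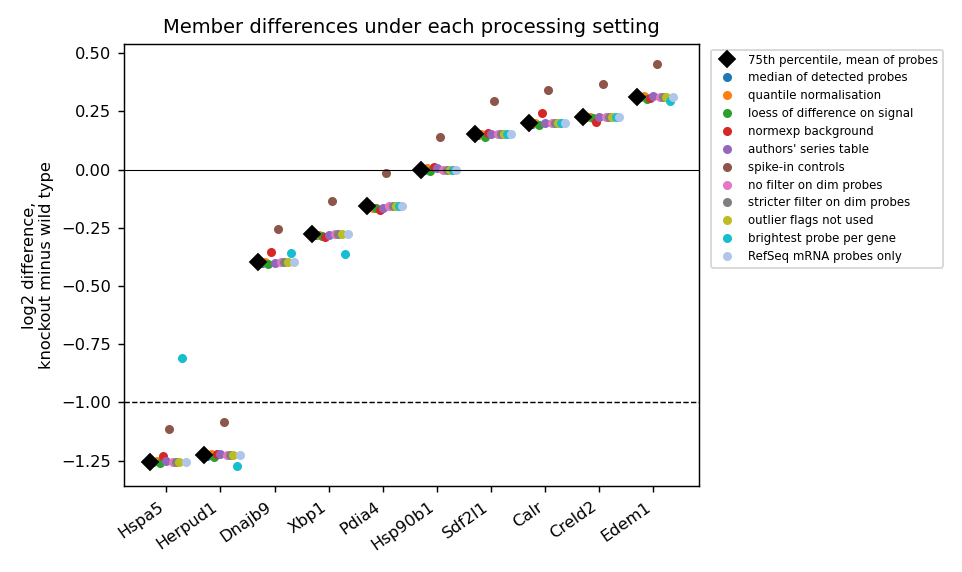
Log2 difference of each member gene under the reported processing (black diamonds) and 11 other settings (circles). Hspa5 and Herpud1 stay below the dashed 2-fold line in all settings but 1, the brightest probe of Hspa5 at -0.81, and the spike-in scale moves all members upward by 0.14.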

How the data were processed

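Per the labels, total RNA of 1 oocyte pool per genotype was purified with an RNeasy kit, then amplified as Cy3-labelled cRNA by Agilent's low-input method. The deposited scanner files hold spot intensity on a linear scale from array design 074809, written by Feature Extraction 10.7.1.1 per the file headers (9.5.1.1 per the submitters' processing notes), background-subtracted and detrended but not scaled between arrays. The authors' series table holds linear intensity with the same median, 57.95, in both columns. It followed the scanner differences with r = 0.997 across probes, so its scale and direction are known.

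The log2 of the processed intensity was averaged over unflagged spots of a probe, and each array's 75th percentile (signals of 808 and 790) was subtracted. Low-input amplification of pools of unequal size can distort such ratios. A gene is the mean of its probes well above background on both arrays. Probes were named through RefSeq (GRCm38.p6), 32989 by accession, 10228 by symbol and 519 by synonym, and the rest kept the file's name. Called means at least 1.5-fold or 2-fold apart. Members, lists and rules were chosen with earlier results of these data known. Named are all members, Mul1, genes of each list at least 1.5-fold apart or at its ends, and, chosen after values were seen, textbook genes of each role and genes with an element. Scripts (Python 3.11.15, limma 3.58.1) were tested on simulated data.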

Additional observations from a re-analysis of the deposited data

How the results depend on the processing

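Across 10 planned settings (scaling on the median of detected probes or on 7 spike-in probes, quantile, loess with span 0.3, normexp with offset 50, the authors' table, no or a 4 times stricter filter on dim probes, no outlier flags, the brightest probe) and 1 added after seeing the data (RefSeq mRNA probes only), the counts of members at least 1.5-fold lower, and at least 1.5-fold or 2-fold higher, were as reported in all 11. The brightest probe left 1 member at least 2-fold lower, by construction. The spike-in scale, which shifts all genes alike, gave a member median of 0.062 and a median of 0.22 over the other ER genes. Of those genes, 1 was at least 1.5-fold lower with normexp, the spike-in scale, the stricter filter or the brightest probe, 4 without a filter and 0 with RefSeq mRNA probes, and at least 1.5-fold higher were 1 with normexp or the stricter filter and 6 without a filter. Causes beyond the settings' own construction were not tested. Over all genes the counts at 1.5-fold, 1188 lower and 1792 higher (60.1% of those apart), were 756 and 2656 (77.8%) on the spike-in scale, 484 and 717 with normexp, 3272 and 5350 without a filter, 707 and 923 with the stricter filter and 429 and 1198 (73.6%) with RefSeq mRNA probes, where fewer genes were measured. As shares of measured genes, the lower and higher counts were 3.3% and 11.6% on the spike-in scale and 2.11% and 3.13% with normexp. They were 8.84% and 14.5% without a filter and 3.88% and 5.07% with the stricter filter. By the brightest probe they were 5.07% and 7.7%, and with RefSeq mRNA probes 2.83% and 7.89%. No paired analysis was possible because each genotype has 1 array. Probe signals of the members were at least 14.1 times the lowest signal well above background.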

Other observations

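Several ER genes carried a probe for an Ensembl transcript that read lower on the knockout array than the probes for their RefSeq mRNA, a comparison made after these values were seen. In the ER lists, 22 genes had both kinds of probe measured, and in 18 of them the Ensembl probe was below the RefSeq probe, with a median gap of -0.41. Of these genes 9 were at least 1.5-fold lower by the Ensembl probe and none by the RefSeq probe, and 2 against none were at least 1.5-fold higher. Besides Hyou1 and Sel1l, the gap was wide for the thioredoxin-like membrane protein gene Tmx4 (-0.93 against 0.15), the degradation lectin gene Erlec1 (-0.83 against 0.10), the site-2 protease gene Mbtps2 (-1.13 against -0.21), the segregase gene Vcp (-0.52 against 0.22) and its cofactor gene Nploc4 (-0.67 against 0.03). The opposite order was seen for Fkbp14 (0.79 against 0.17), Tmx1 and Nfya. Over all 2083 genes with both kinds of probe the Ensembl probe was lower in 58.5%, with a median gap of -0.08, and 304 genes were at least 1.5-fold lower by it against 52 by the RefSeq probe, and 168 against 83 were higher, so the Ensembl probes had more calls in both directions. No member had an Ensembl probe, so the Hspa5 and Herpud1 values rest on RefSeq mRNA probes. The 2 kinds of probe were not matched for signal, and differences of small signals scatter more. In wild type the Ensembl probe of Sel1l read 214 against 743 and 14622 for its RefSeq probes. That of Dnajc25 read 1575 against 884. Which RNA the Ensembl probes detect was not analysed here.

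By RefSeq mRNA probes the partners of BiP lay on both sides of 0. Hyou1 read 0.46. Among J-domain genes, Dnajb11 read 0.21, and Dnajb9, Dnajc25 and Dnajc1 read -0.40, -0.55 and -0.21. Over all their measured probes, the J-domain genes Dnajc10, Dnajc3 and Sec63 read 0.28, 0.10 and 0.00. Sil1, a nucleotide exchange factor gene, read -0.25 over 3 probes, not all of them for RefSeq mRNAs. These genes were picked after their values were seen.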
